A study of Homo sapiens with 7 samples.

Results

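The genes described here encode the vacuolar proton pump (V-ATPase) and the enzymes, membrane proteins and transcription factors of the lysosome. They were taken by name from a table of estimated counts for 19978 genes, and all 48 were found there: 15 subunits of the 2 sectors of the pump, 2 accessory subunits, 20 lumenal enzymes and activators, 8 membrane or sterol-export proteins and the 3 transcription factors TFEB, TFE3 and MITF. The counts came from poly(A) RNA of HEK-293, an established human embryonic kidney cell line, kept for 48 h in 1 of 3 conditions. Control cells (2 samples) were in medium of pH 7.4 that held the vehicle DMSO. Acidosis (3 samples) meant acidified medium of pH 6.6, again with the vehicle. The remaining 2 samples were treated at pH 7.4 with 10 µM SRPIN340, in medium that per the study's methods held DMSO as well. SRPIN340 is an inhibitor of the SRPK kinases that phosphorylate splicing factors (one of the protocol labels gives the compound another number). The labels number the samples as repeats, and the study's methods call them biological repeats of this single cell line.

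The V-ATPase couples the hydrolysis of ATP in its peripheral V1 sector to the transport of protons through its membrane V0 sector. It acidifies lysosomes, endosomes and secretory vesicles, and lysosomal proteases, glycosidases and lipases need that acid lumen. TFEB, TFE3 and MITF are related transcription factors that bind E-box motifs in the promoters of many lysosomal genes, in the so-called CLEAR network. mTORC1, a kinase that is active on the lysosomal surface when nutrients are available, keeps these factors in the cytoplasm.

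The E-box core of that network, CACGTG, and its 8-base form TCACGTGA were searched on both strands of RefSeq promoters (build GRCh38.p14, 250 bases before to 50 after the start, 300 in all). CACGTG lies within TCACGTGA and reads the same on both strands. Promoters of 37 of the 48 genes were matched by symbol, and CACGTG was in 12 of them (32.4%), against 1362 of the 15323 promoters matched over the whole table (8.89%). TCACGTGA was in 6 of 37 (16.2%) against 225 of 15323 (1.47%). The windows below show, for each of these 12 genes, 30 bases around the CACGTG nearest to the start among those upstream of it, read 5′ to 3′ on the strand of the gene, with the E-box in capitals.
ATP6V1G1 (chr9:114587699-114587728, plus strand): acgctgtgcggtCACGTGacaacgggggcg
ATP6V0B (chr1:43974909-43974938, plus strand): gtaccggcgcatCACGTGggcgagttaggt
ATP6V0D1 (chr16:67481199-67481228, minus strand): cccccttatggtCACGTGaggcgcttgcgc
ATP6V0E2 (chr7:149872884-149872913, plus strand): tcccttctgcatCACGTGgggactgcgcct
CTSA (chr20:45891298-45891327, plus strand): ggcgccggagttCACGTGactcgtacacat
CTSD (chr11:1763957-1763986, minus strand): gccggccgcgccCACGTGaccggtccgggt
NEU1 (chr6:31862930-31862959, minus strand): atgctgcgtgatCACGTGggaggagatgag
GAA (chr17:80101538-80101567, plus strand): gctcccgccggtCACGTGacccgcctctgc
LAMP1 (chr13:113297199-113297228, plus strand): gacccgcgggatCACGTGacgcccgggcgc
CD63 (chr12:55729172-55729201, minus strand): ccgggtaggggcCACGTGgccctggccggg
MCOLN1 (chr19:7522598-7522627, plus strand): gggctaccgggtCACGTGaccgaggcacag
CLCN7 (chr16:1475038-1475067, minus strand): cccgtcgcgcgtCACGTGgccgccggcgcg
In 6 of these windows (ATP6V0D1, ATP6V1G1, CTSA, GAA, LAMP1 and MCOLN1) the capitals belong to the 8-base form. LAMP1, which encodes the main glycoprotein of the lysosomal membrane, had 6 matches to CACGTG in its 300 bases. The motif was in none of the 3 promoters of the TFEB family itself, and a match or its absence in this window is a description of letters only.

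Library totals lay between 13615816 and 24110460 counts, and the lowest belonged to acidosis replicate 2. Values are given as CPM, the share of a library scaled to a common total after scaling each library by the TMM factor, which averages over most genes. In acidosis 24.1% to 24.8% of a library fell on its 100 most abundant genes, elsewhere 15.2% to 15.4%. The TMM factors were 0.782 to 0.800 in acidosis and 1.17 to 1.21 elsewhere. TMM thus sets each change against that of most other genes, and the median log2 fold change over all genes in acidosis was -0.05 with TMM and -0.63 when libraries were scaled by their totals only. In these bulk samples, less RNA per cell and fewer cells cannot be told apart. Of the HEK-293 associated markers, VIM, NEFL, NEFM, KRT8 and KRT18 were at 22.6 CPM or more in every sample, and PAX2 was at 1.20 to 7.05 CPM. In acidosis VIM, NEFM, NEFL and KRT8 passed as higher, VIM going from 842 and 892 CPM in control to between 2675 and 2745 CPM, though NEFL and KRT8 did not pass with library totals only. PAX2 and KRT18 passed as lower, PAX2 going from 7.05 and 6.48 CPM in control to between 1.20 and 2.46 CPM. The markers of blood cells, endothelium, hepatocytes and osteoclasts were at 2.54 CPM or less in all samples, with CD3E, TTR and OCSTAMP at 0. Of these, CD14 (0.672 and 0.676 CPM in control, 1.06 to 2.54 CPM in acidosis), VWF (0.126 CPM or less and 0.218 to 2.04 CPM) and PTPRC (0.278 CPM or less and 0.639 to 0.791 CPM) passed as higher in acidosis by edgeR, and none of them did with library totals only. Their part in the results below was not tested.

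Acidosis raised most of these genes relative to the typical gene. Of the 48, 40 passed the test upward (adjusted p under 0.05), 4 passed it downward and 4 did not pass. Over all 14863 genes tested, 32.5% passed upward and 34.2% downward, and of the 10119 genes that averaged 10 CPM or more, a limit chosen after seeing the data, 41.5% and 35.1% did. Called changes, which also needed an absolute log2 fold change over 1, were 21 upward and 2 downward, where 14.4% and 19.1% of all genes were called. The median log2 fold change of the 48 genes was 0.88. The genes that fell were ATP6V1C1, ATP6V1H, CTSB and CTSL, and those that did not pass were ATP6V1B2, ATP6V0D1, NAGLU and MITF. All 3 acidosis samples lay above both control samples for 40 of the 48 genes and below them for 5, and the same held for 37.0% and 39.5% of all genes.

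**Figure D1:**
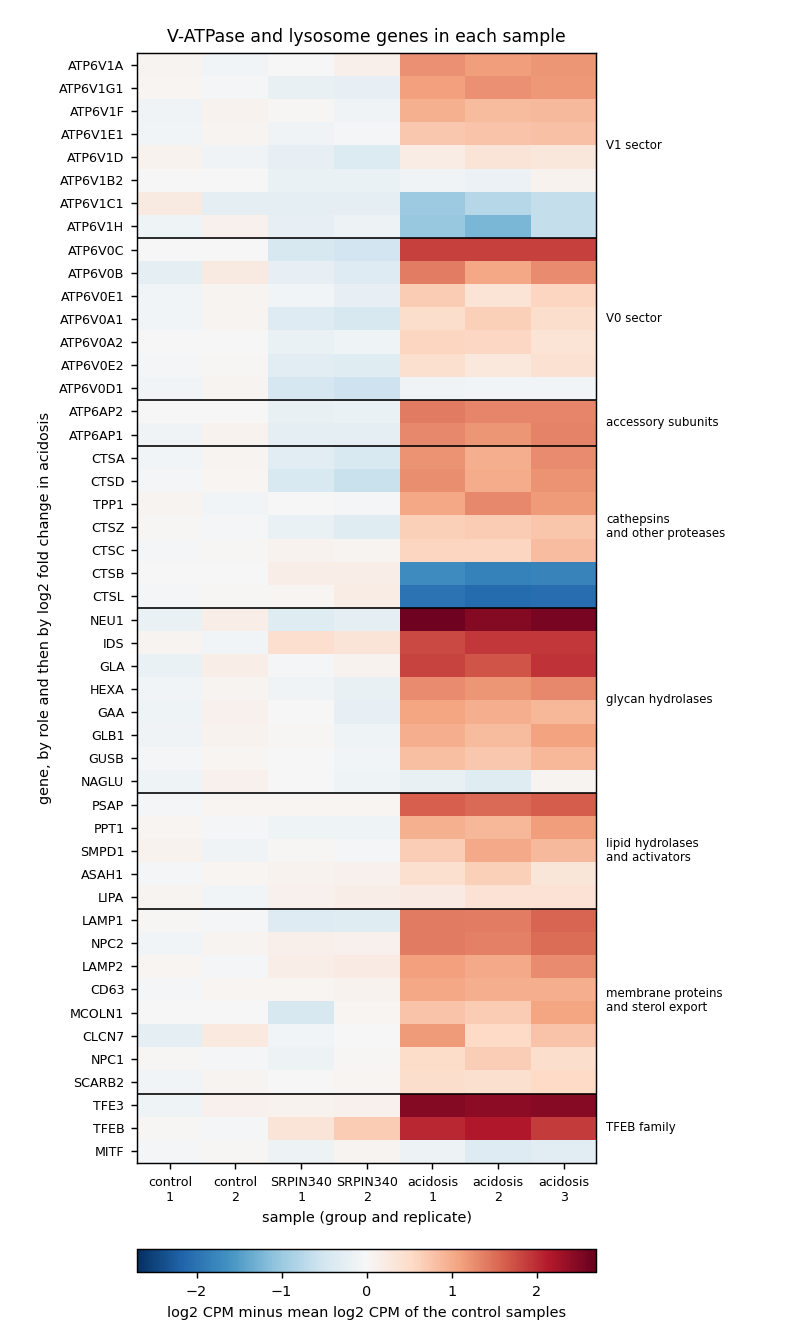
Heat map of the 48 genes (rows, grouped by role) in the 7 samples (columns), as log2 CPM minus the mean log2 CPM of the 2 control samples, with TMM scaling (9 genes change sign in acidosis with library totals only). The acidosis columns are red for most rows, the rows of CTSL, CTSB, ATP6V1H and ATP6V1C1 are blue there, and the SRPIN340 columns are pale.

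Scaling by library totals only moved these counts to 26 upward and 10 downward passes, and to 7 called upward and 4 downward, where 16.2%, 55.0%, 5.48% and 35.0% of all genes did so. The median of the 48 genes was then 0.31, and that of all genes -0.63. With this scaling the log2 fold changes of 9 genes turned negative: ATP6V1D, ATP6V0A1, ATP6V0A2, ATP6V0E1, ATP6V0E2, ASAH1, LIPA, SCARB2 and NPC1. ATP6V1D (-0.29) and LIPA (-0.24) then passed as lower (edgeR's quasi-likelihood test, adjusted p = 0.0198 and 0.0348). The called falls of CTSL and CTSB and the called rises of the genes below with a log2 fold change over 1.5 kept their direction and passed under both scalings.

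**Figure D2:**
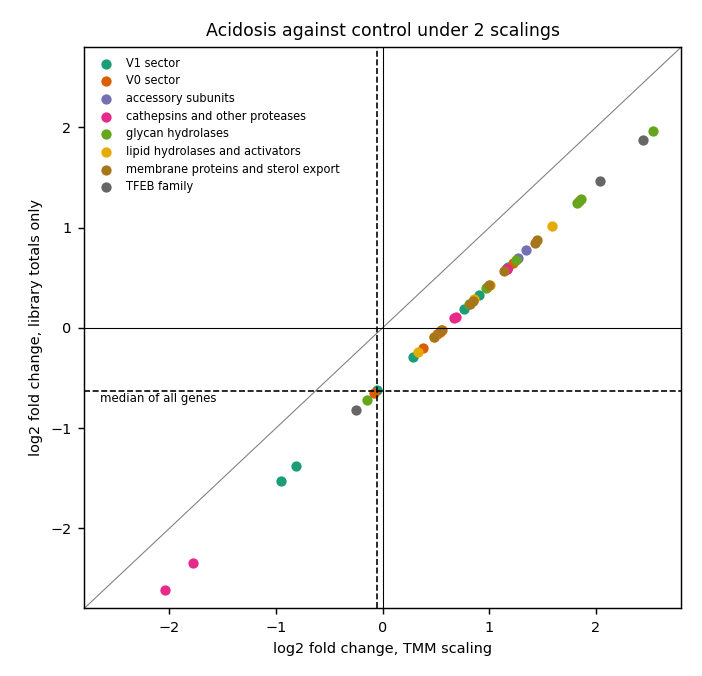
Log2 fold change in acidosis against control for each of the 48 genes with TMM scaling (x axis) and with library totals only (y axis), coloured by role. Dashed lines mark the median of all genes tested, -0.05 and -0.63, and the 9 genes right of 0 and below 0 change sign between the scalings.

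The share of the library held by the 48 genes together does not depend on a scaling factor. It was 0.481% ± 0.0191 (SD, n = 2) in control, 0.473% ± 0.00107 (SD, n = 2) with SRPIN340 and 0.6999% ± 0.0129 (SD, n = 3) in acidosis. Every acidosis library (0.686% to 0.711%) lay above both control libraries (0.468% and 0.495%). The roles differed in this respect. Glycan hydrolases held 0.0698% ± 0.00712 (SD, n = 2) in control and 0.144% ± 0.00439 (SD, n = 3) in acidosis, and the TFEB family held 0.00802% ± 0.000742 (SD, n = 2) and 0.0252% ± 0.000468 (SD, n = 3). The V1 sector held 0.0695% ± 0.000244 (SD, n = 2) and 0.0729% ± 0.000749 (SD, n = 3). The proteases held 0.0633% ± 0.000974 (SD, n = 2) and 0.0603% ± 0.00155 (SD, n = 3), and here the acidosis libraries (0.0589% to 0.0620%) lay just below the control libraries (0.0626% and 0.0640%). With the 100 genes of most counts left out of each library total, the 48 genes held 0.562% of the rest in control, 0.554% after SRPIN340 and 0.908% in acidosis. The order of the proteases turned there, with 0.0761% to 0.0808% in acidosis against 0.0730% and 0.0748% in control.

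The transcription factors of the family differed from each other. TFE3 was at 49.98 and 58.0 CPM in control, at 57.2 and 57.9 CPM with SRPIN340 and at 301, 286 and 297 CPM in acidosis. Control and SRPIN340 samples thus overlapped, and all acidosis samples stood far above them, with a log2 fold change of 2.45 (SE 0.0851, adjusted p = 2.1e-08, edgeR). TFEB was at 4.08 and 3.87 CPM in control, at 5.09 and 6.38 CPM with SRPIN340 and at 16.4, 17.9 and 14.8 CPM in acidosis. Its log2 fold change in acidosis was 2.04 (SE 0.185, adjusted p = 7.14e-06, edgeR), at a level that was low in every sample. MITF, better known from pigment cells, was at 9.94 and 10.5 CPM in control, 9.29 and 10.7 CPM with SRPIN340 and 9.30, 8.01 and 8.39 CPM in acidosis. It did not pass in acidosis (log2 fold change -0.25, SE 0.159, adjusted p = 0.199, edgeR), though with library totals only it passed as lower (-0.82, adjusted p = 0.00105). Levels per kilobase, and their order, depend on whether the deposited counts were already scaled by transcript length, which is not given in the sources used here. Taken as unscaled, control levels per kilobase of the canonical transcript were 16.4 CPM for TFE3, 2.13 CPM for MITF and 1.70 CPM for TFEB.

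**Figure D3:**
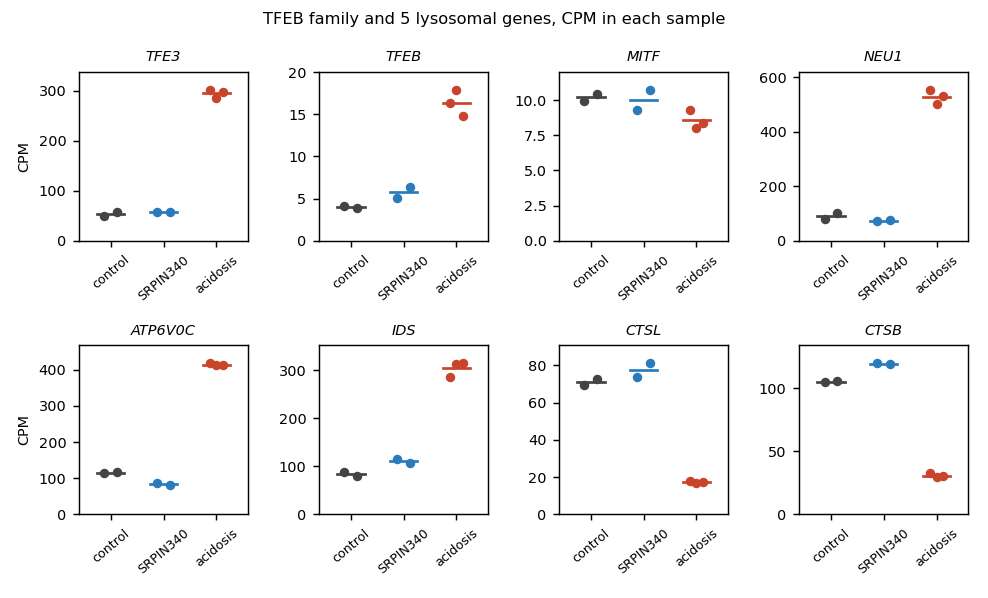
CPM in each sample (points) and group mean (lines) for the 3 genes of the TFEB family, NEU1, ATP6V0C, IDS, CTSL and CTSB, each on its own linear axis from 0. The acidosis points of TFE3 (286 to 301 CPM) and NEU1 (500.2 to 554 CPM) stand apart upward, those of CTSL (16.8 to 17.8 CPM) and CTSB (29.6 to 32.5 CPM) stand apart downward, and those of MITF lie just below control.

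In the V1 sector, which holds the ATP-hydrolysing head and the stalks of the pump, 5 of the 8 subunits rose in acidosis and 2 fell. Of all genes, 32.5% passed upward and 34.2% downward. ATP6V1A, the catalytic subunit, was at 95.0 and 85.8 CPM in control, at 90.2 and 99.5 CPM with SRPIN340 and at 212, 197 and 205 CPM in acidosis (log2 fold change 1.18, SE 0.0818, adjusted p = 1.19e-06, edgeR). ATP6V1G1, of the peripheral stalk, was at 70.3 and 66.1 CPM in control, at 59.4 and 58.8 CPM with SRPIN340 and at 147, 160.1 and 153 CPM in acidosis. For both genes the acidosis samples were above all others. ATP6V1F (0.90), ATP6V1E1 (0.76) and ATP6V1D (0.28) rose less in log2 fold change. The rise of ATP6V1D was lost without control replicate 2 (log2 fold change 0.18, adjusted p = 0.213), acidosis replicate 2 (0.26, 0.0503) or acidosis replicate 3 (0.27, 0.0515), and under library totals it reversed.

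The genes of the V1 sector that fell, 2 of 8, were ATP6V1H and ATP6V1C1, where 34.2% of all genes passed downward. ATP6V1H, a regulatory subunit that binds the stalks, was at 30.8 and 36.5 CPM in control, at 28.6 and 30.4 CPM with SRPIN340 and at 16.4, 14.3 and 21.4 CPM in acidosis. Its log2 fold change was -0.96 (SE 0.164, adjusted p = 0.000569, edgeR), short of a call, and with library totals only it was called (-1.53). ATP6V1C1, which is released when V1 separates from V0, was at 56.8 and 41.0 CPM in control, 40.3 and 40.2 CPM with SRPIN340 and 24.5, 28.4 and 31.1 CPM in acidosis. It fell by 0.81 on the log2 scale (SE 0.152, adjusted p = 0.000985, edgeR), and with library totals only it was called (-1.38). ATP6V1B2, the partner of ATP6V1A in the head, did not pass (-0.05, SE 0.0917, adjusted p = 0.661), with acidosis samples between 71.8 and 86.1 CPM on both sides of the control samples at 79.8 and 80.9 CPM. With library totals only, ATP6V1B2 passed as lower (-0.62).

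In the V0 sector, 6 of the 7 genes rose, where 32.5% of all genes passed upward. ATP6V0C encodes the proteolipid that forms most of the rotating c ring, and it was at 114 and 117 CPM in control, 86.1 and 80.7 CPM with SRPIN340 and 418, 413 and 412 CPM in acidosis, and its log2 fold change was 1.84 (SE 0.0645, adjusted p = 2.14e-08, edgeR), with little spread within any group. ATP6V0B, another proteolipid of the ring, was at 45.1 and 62.5 CPM in control, 45.5 and 41.7 CPM with SRPIN340 and 138, 109.6 and 128 CPM in acidosis (log2 fold change 1.22, SE 0.148, adjusted p = 5.39e-05, edgeR). Both had all acidosis samples above the others.

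The a and e subunits of V0 each come in isoforms. ATP6V0A1 was at 82.3 and 91.2 CPM in control, 68.1 and 64.6 CPM with SRPIN340 and 120.3, 136 and 121 CPM in acidosis, and ATP6V0A2 at 51.4 and 50.7, 44.9 and 47.4, and 76.7, 75.8 and 65.5 CPM. ATP6V0E1 was at 53.9 and 59.1 CPM in control, 53.6 and 48.3 CPM with SRPIN340 and 91.2, 72.9 and 84.3 CPM in acidosis, and ATP6V0E2 at 46.5 and 49.1, 38.9 and 38.1, and 64.3, 58.3 and 63.7 CPM. These 4 genes had log2 fold changes between 0.38 and 0.55 in acidosis with TMM, and between -0.20 and -0.02 with library totals only, where none of them passed. ATP6V0D1, which joins the ring to the central stalk, was at 51.0 and 56.8 CPM in control, 39.6 and 36.7 CPM with SRPIN340 and 50.7, 51.0 and 51.5 CPM in acidosis. It did not pass in acidosis with TMM (-0.08, SE 0.0921, adjusted p = 0.476, edgeR), and with library totals only it passed as lower (-0.65, adjusted p = 0.000141).

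Both accessory subunits rose, where 32.5% of all genes passed upward. ATP6AP1, a glycoprotein of the V0 sector, was at 127 and 145 CPM in control, at 115 CPM in both SRPIN340 samples and at 334, 308 and 344 CPM in acidosis (log2 fold change 1.27, SE 0.0823, adjusted p = 7.65e-07, edgeR). ATP6AP2, also known as the prorenin receptor, was at 142 and 146 CPM in control, 125 and 127 CPM with SRPIN340 and 383, 362 and 358 CPM in acidosis (1.35, SE 0.0644, adjusted p = 1.2e-07, edgeR). The acidosis samples stood above all others for both. On the same assumption of unscaled counts, per kilobase of transcript, the pump subunits spanned 7.85 CPM (ATP6V0A2) to 116 CPM (ATP6V1F) in control, and 4.96 CPM (ATP6V1C1) to 379 CPM (ATP6V0C) per kilobase in acidosis. On that scale ATP6V0C and ATP6V1F, the highest in control, were at 106 ± 1.65 and 116 ± 9.83 CPM per kilobase (SD, n = 2), a difference of about the spread between the samples.

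**Figure D4:**
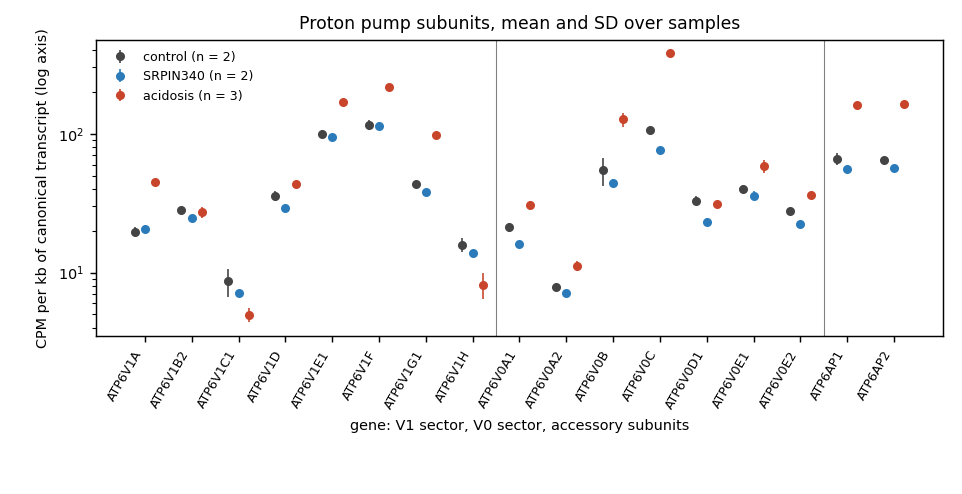
Mean CPM per kilobase of canonical transcript (log axis) of the 17 pump subunits in control, SRPIN340 and acidosis, with bars of 1 SD over samples. ATP6V0C rises from 106 to 379 in acidosis, ATP6V1C1 and ATP6V1H lie below control there, and the other subunits lie near control or above it.

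Among the 7 proteases, 5 rose and 2 fell, where 32.5% and 34.2% of all genes passed upward and downward. The 2 falls were larger than any of the rises. CTSL, the cysteine protease cathepsin L, was at 69.4 and 72.7 CPM in control, 73.8 and 81.1 CPM with SRPIN340 and 17.8, 16.8 and 17.2 CPM in acidosis, and its log2 fold change was -2.04 (SE 0.0931, adjusted p = 9.39e-08, edgeR), which is 4.11-fold lower. CTSB, the related cathepsin B, was at 105 and 106 CPM in control, 119.8 and 119.5 CPM with SRPIN340 and 32.5, 29.6 and 30.1 CPM in acidosis, with a log2 fold change of -1.78 (SE 0.0791, adjusted p = 8.12e-08, edgeR). The acidosis samples of both were far below all others and close together.

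The proteases that rose are of other families, apart from 2 cysteine cathepsins. CTSD, the aspartic protease cathepsin D, was at 98.7 and 107 CPM in control, 77.2 and 67.4 CPM with SRPIN340 and 246, 206 and 239.6 CPM in acidosis (log2 fold change 1.16, SE 0.0996, adjusted p = 4.82e-06, edgeR). CTSA, a serine carboxypeptidase that also stabilises NEU1, was at 40.1 and 44.2 CPM, 33.8 and 31.7 CPM, and 98.1, 82.9 and 103 CPM in the same order of groups. TPP1, a serine tripeptidyl peptidase, was at 72.9 and 65.0 CPM in control, 68.6 and 66.4 CPM with SRPIN340 and 142, 169 and 152 CPM in acidosis. These 3 had log2 fold changes of 1.16 to 1.17, with all acidosis samples on top. The cysteine cathepsins CTSZ (0.69) and CTSC (0.67) rose less in log2 fold change, and neither passed with library totals only.

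The glycan hydrolases gave the largest rise among the 48 genes. NEU1, the lysosomal sialidase, was at 79.1 and 102 CPM in control, 72.1 and 74.6 CPM with SRPIN340 and 554, 500.2 and 532 CPM in acidosis, and its log2 fold change was 2.54 (SE 0.111, adjusted p = 7.27e-08, edgeR), or 5.82-fold. IDS, which removes sulfate from heparan and dermatan sulfate, was at 88.1 and 79.5 CPM in control, 115 and 106 CPM with SRPIN340 and 287, 314 and 315 CPM in acidosis (1.86, SE 0.0823, adjusted p = 7.68e-08, edgeR). For IDS the 3 groups did not overlap in any pair.

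GLA, the alpha-galactosidase that is deficient in Fabry disease, was at 102 and 132 CPM in control, 114 and 125 CPM with SRPIN340 and 413, 378 and 451 CPM in acidosis (log2 fold change 1.82, SE 0.122, adjusted p = 9.33e-07, edgeR). HEXA, a subunit of the hexosaminidase that is deficient in Tay-Sachs disease, was at 67.5 and 74.7 CPM, 66.9 and 61.8 CPM, and 171, 162 and 175 CPM in the same order. Both were highest in all acidosis samples. GAA (0.98), GLB1 (0.97) and GUSB (0.81), which cleave glycogen, beta-galactosides and glucuronides, also rose in log2 fold change and stayed under the limit of a call. NAGLU, which acts on heparan sulfate as IDS does, was at 29.4 and 34.7 CPM in control, 31.8 and 29.4 CPM with SRPIN340 and 28.0, 25.5 and 33.4 CPM in acidosis. It did not pass (-0.15, SE 0.137, adjusted p = 0.367, edgeR), and all groups overlapped. With library totals only it passed as lower (-0.72, adjusted p = 0.000828).

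All 5 genes for lipid breakdown rose with TMM scaling, where 32.5% of all genes did, while ASAH1 and LIPA reversed with library totals only. PSAP, the precursor of the saposins that present sphingolipids to their hydrolases, was at 365 and 389.7 CPM in control, 393 and 389.9 CPM with SRPIN340 and 1149, 1089 and 1172 CPM in acidosis. Its log2 fold change was 1.59 (SE 0.0619, adjusted p = 3.79e-08, edgeR), and it held the most CPM of the 48 genes in every sample. PPT1, a thioesterase that removes palmitate from proteins, was at 112 and 105 CPM in control, 100.03 and 100.4 CPM with SRPIN340 and 212, 203 and 238 CPM in acidosis, just past the limit of a call (log2 fold change 1.00, SE 0.0843, adjusted p = 4.26e-06, edgeR). SMPD1 (0.86), the acid sphingomyelinase, and ASAH1 (0.48), the acid ceramidase, rose less, and SMPD1 did not pass with library totals only (0.28, adjusted p = 0.131, edgeR). LIPA, the acid lipase, was at 76.9 and 68.9 CPM in control, 79.2 and 82.6 CPM with SRPIN340 and 84.6, 95.5 and 95.8 CPM in acidosis. Its log2 fold change was 0.33 (SE 0.0908, adjusted p = 0.00871, edgeR), and the test was missed without control replicate 2 (0.24, adjusted p = 0.0975).

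All 8 genes for membrane proteins and sterol export rose with TMM scaling, where 32.5% of all genes did. Of these 8, 4 passed upward with library totals only, where 16.2% of all genes did. LAMP1 was at 120.4 and 114 CPM in control, 91.4 and 92.8 CPM with SRPIN340 and 310.3, 304 and 348 CPM in acidosis (log2 fold change 1.45, SE 0.079, adjusted p = 2.64e-07, edgeR). LAMP2, which also serves chaperone-mediated autophagy, was at 196 and 184 CPM, 214 and 221 CPM, and 406, 388 and 462 CPM in the same order (1.14, SE 0.0837). CD63, a tetraspanin of late endosomes, was at 211 and 229 CPM in control, 228 and 235 CPM with SRPIN340 and 454, 435 and 433 CPM in acidosis (1.00, SE 0.0643). All acidosis samples of these 3 were above the others.

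NPC2, the lumenal protein that hands cholesterol to NPC1, was at 70.3 and 77.5 CPM in control, 81.2 and 80.3 CPM with SRPIN340 and 195, 190.1 and 211 CPM in acidosis (log2 fold change 1.43, SE 0.0808, adjusted p = 3.22e-07, edgeR). NPC1, the sterol exporter itself, was at 109.7 and 105 CPM in control, 97.0 and 109 CPM with SRPIN340 and 152, 170.4 and 148 CPM in acidosis (0.55, SE 0.0882, adjusted p = 0.00037, edgeR). The rise was thus larger for the lumenal partner. SCARB2, the receptor that carries glucocerebrosidase to the lysosome, had the smallest rise of the group, from 138 and 151 CPM in control, 146 and 149.5 CPM with SRPIN340 to 201, 195 and 208 CPM in acidosis. Its log2 fold change was 0.48 with TMM and -0.09 with library totals only, as NPC1 had 0.55 and -0.03. MCOLN1 (0.85), a calcium channel, and CLCN7 (0.82), a chloride-proton exchanger, had the widest standard errors of the group (0.178 and 0.196), and CLCN7 missed the test without control replicate 1 (0.57, adjusted p = 0.0509).

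**Figure D5:**
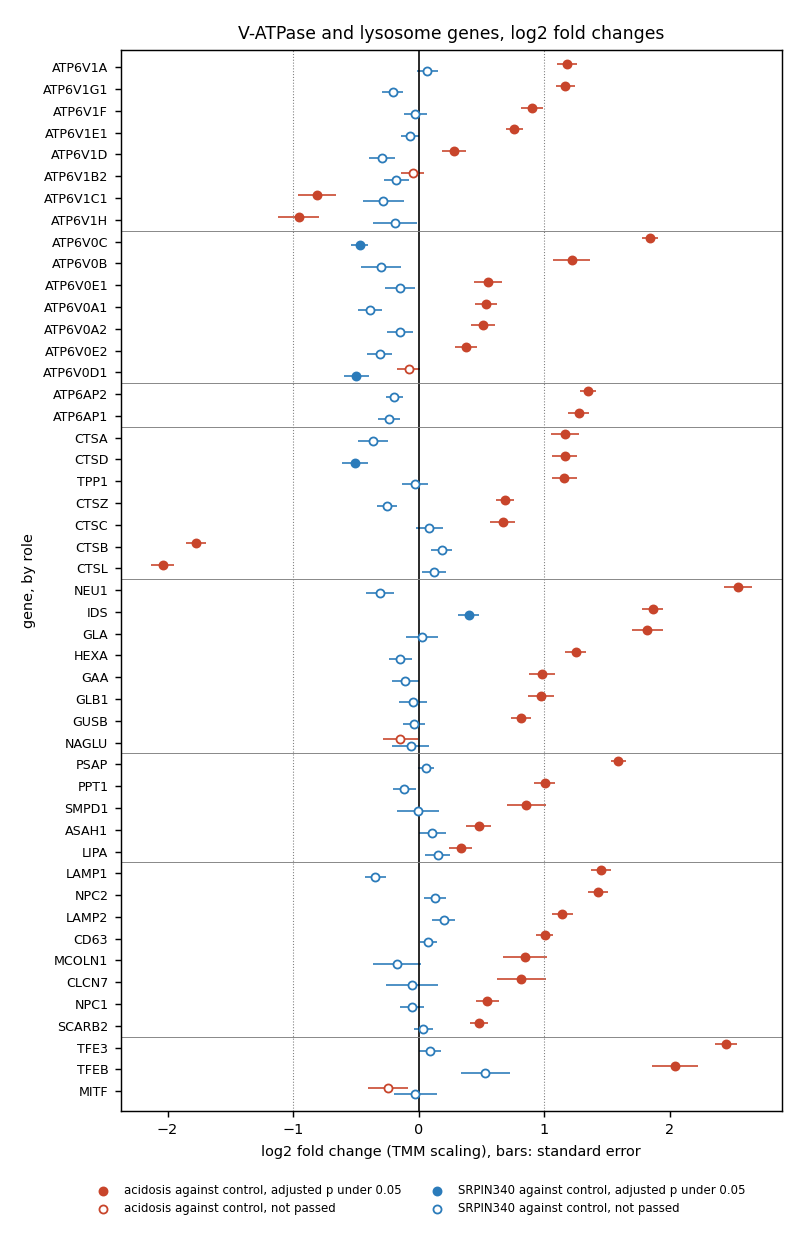
Log2 fold change (points) and standard error (bars) of the 48 genes in acidosis (red) and with SRPIN340 (blue) against control, TMM scaling, ordered by role. Filled points passed at an adjusted p under 0.05, and dotted lines mark a log2 fold change of 1 in either direction. The red points run from -2.04 to 2.54 and the blue ones from -0.51 to 0.53.

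SRPIN340 left most of these genes near control. With it, 1 of the 48 passed upward (IDS) and 3 downward (ATP6V0C, ATP6V0D1 and CTSD), where 0.767% and 1.53% of all genes passed. By edgeR 0 of the 48 were called, as by DESeq2. At an unadjusted p under 0.05 in edgeR, 2 were higher and 13 lower, where 8.15% and 9.48% of all genes were, and none of these had an absolute log2 fold change over 1. The calls over all genes were 0.128% upward and 0.195% downward. The median log2 fold change of the 48 was -0.07, against 0.00 for all genes. The log2 fold changes of 46 genes were under 0.5 in size, and the standard errors of the 48 were 0.0643 to 0.210. In simulated counts for this comparison, edgeR recovered 18% of genes changed by 0.5 and 68% of those changed by 1 on the log2 scale. The changed genes were drawn at random from all levels, so these shares are not those of the 48 genes. Small changes could be missed.

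ATP6V0C, at 86.1 and 80.7 CPM with SRPIN340 against 114 and 117 CPM in control, fell by 0.47 on the log2 scale (SE 0.0673, adjusted p = 0.0122, edgeR). ATP6V0D1, at 39.6 and 36.7 CPM against 51.0 and 56.8 CPM, fell by 0.50 (SE 0.10, adjusted p = 0.0397, edgeR). CTSD, at 77.2 and 67.4 CPM against 98.7 and 107 CPM, fell by 0.51 (SE 0.106, adjusted p = 0.0449, edgeR). IDS, at 115 and 106 CPM against 88.1 and 79.5 CPM, rose by 0.40 (SE 0.0851, adjusted p = 0.0484, edgeR). In each of these 4 both SRPIN340 samples lay outside the range of the control samples. Over all genes both lay above that range in 27.3% and below it in 26.8%. None of the 4 passed when either control or either SRPIN340 sample was left out, with directions kept. Each of those fits left a single sample in a group, so the missed tests cannot show whether the changes hold. Without acidosis replicate 1 or 3, whose spread enters the fit, ATP6V0C was the only one of the 4 that passed. With library totals only, ATP6V0D1 and CTSD missed the test (adjusted p = 0.0547 each, edgeR), with RLE factors IDS did (0.0557), and with a replicate block all 4 did (0.0719 to 0.128). By DESeq2 these 4 passed, as did ATP6V0A1 (-0.39, SE 0.109, adjusted p = 0.00803) and LAMP1 (-0.35, SE 0.098, adjusted p = 0.00803). Over all genes DESeq2 passed 322 upward and 551 downward of 18021, where edgeR passed 114 and 228 of 14863.

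By role, the 7 genes of the V0 sector all had negative log2 fold changes with SRPIN340, from -0.50 to -0.15 (median -0.31), and so had 7 of the 8 genes of the V1 sector (median -0.18) and both accessory subunits. TFEB had the highest value of the 48, 0.53 (SE 0.195, adjusted p = 0.198, edgeR), and did not pass. Both SRPIN340 samples lay above both control samples for 10 genes and below them for 20, where 27.3% and 26.8% of all genes did so. Both treatments were compared with the same 2 control samples. Tested directly against SRPIN340, acidosis had 40 of the 48 genes higher and 4 lower, where 32.8% and 35.0% of all genes passed, and 22 called higher and 2 lower, where 14.9% and 19.7% of all genes were. With library totals only these counts were 28 and 9 passes and 6 and 4 calls. Of all 14863 genes, 2349 and 8450 passed with that scaling, and 775 and 5505 were called.

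Some of these genes share sequence with others, and estimated counts then depend on how reads were divided. Of the 31-base words of the canonical transcript, 96.0% for ATP6V0C, 93.4% for IDS and 61.6% for CTSD also occur in other genes. The gene that shared the most words with each overlaps it on the same strand. These overlapping genes were at 0 to 2.30 CPM, 6.13 to 17.4 CPM and 0.818 to 4.73 CPM, under the levels of the genes they overlap. Their values come from the same division of reads, so they cannot show how far it affects ATP6V0C, IDS and CTSD. Over 5% of the words were shared in 14 of the 48 genes, NEU1 and CTSL (9.12% and 6.59%) among them.

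Ratios of partners within a sample do not depend on library scaling, and 7 pairs were compared. The log2 ratio of TFE3 to MITF was 2.33 and 2.47 in control, 2.62 and 2.43 with SRPIN340 and 5.02, 5.16 and 5.14 in acidosis. That of NPC1 to NPC2 was 0.64 and 0.44 in control, 0.26 and 0.45 with SRPIN340, and -0.36, -0.16 and -0.51 in acidosis, so that the sign was turned in all 3 acidosis samples. That of LAMP1 to LAMP2 was -0.70 and -0.69 in control, -1.23 and -1.25 with SRPIN340 and -0.39, -0.35 and -0.41 in acidosis, with no overlap between the 3 groups. TFE3 to TFEB was 3.61 and 3.90 in control and 3.996 to 4.33 in acidosis, with SRPIN340 at 3.49 and 3.18. ATP6V0E1 to ATP6V0E2 was 0.21 and 0.27 in control, 0.46 and 0.34 with SRPIN340 and 0.32 to 0.50 in acidosis. In an exact two-sided permutation test, each of these 5 ratios reached p = 0.2 for acidosis against control (0.28 after adjustment over the 7 pairs), the smallest p that 3 against 2 samples allow. ATP6V0A1 to ATP6V0A2 (a difference in mean log2 ratio of 0.03, p = 1.00 in the same exact test) and ATP6AP1 to ATP6AP2 (-0.07, exact p = 0.4) overlapped between the groups. With SRPIN340, 2 against 2 samples, the smallest p allowed is 0.333.

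The genes that share a CACGTG motif in their promoter were looked at in acidosis. Of the 12 genes with it, 11 rose and ATP6V0D1 did not pass, with a median log2 fold change of 1.08. Of the 25 others with a promoter sequence, 23 rose and 1, CTSL, fell, with a median of 0.86. The other genes that fell, CTSB, ATP6V1C1 and ATP6V1H, had no promoter entry and are in neither count. Over all genes tested with a promoter sequence, 34.2% of those with CACGTG passed upward and 33.3% of those without.

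Other genes of the pathway were followed in 6 lists of 106 genes, of which 103 were tested. In acidosis 52 passed upward and 28 downward, where 32.5% and 34.2% of all genes did, with a median log2 fold change of 0.46. Of the 34 other lysosomal hydrolases, 21 rose and 7 fell. PLBD2, a putative phospholipase, went from 66.2 ± 4.13 (SD, n = 2) to 176 ± 5.47 CPM (SD, n = 3), and NAAA, an acid amidase, had a log2 fold change of 1.19, while HGSNAT (-0.9985), an acetyltransferase of heparan sulfate breakdown, fell. Of 22 other lysosomal membrane proteins, 11 rose and 7 fell. LAPTM4B (1.65) and LAPTM4A (1.49), transmembrane proteins of late endosomes and lysosomes, rose, and CTNS (-2.15), the cystine exporter, and MFSD8 (-0.87) fell in log2 fold change.

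Of 10 genes for assembly and regulation of the pump, 4 rose and 4 fell, near the shares of all genes. VMA21 (1.34), the assembly factor of V0 in the endoplasmic reticulum, and RNASEK (1.31), a subunit-like partner of the pump, rose in log2 fold change. TMEM199 (-0.83), another assembly factor, and WDR7 (-0.83), of the rabconnectin complex, fell, though WDR7 missed the test without control replicate 1 (-0.82, adjusted p = 0.0529, edgeR). Of the 8 other isoforms of pump subunits, which serve kidney, bone or other tissues, 6 were tested and all 8 were at 8.09 CPM or less in each sample. ATP6V1B1 rose (0.98), from 1.64 and 1.90 CPM in control to 4.24, 3.20 and 2.88 CPM, and ATP6V0D2, at 0.685 CPM or less throughout, passed as lower by edgeR (adjusted p = 0.0307) and not by DESeq2 (adjusted p = 0.114).

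Of 23 genes for the control of mTORC1 and TFEB on the lysosome, 22 were tested, 10 rose and 8 fell, where 32.5% and 34.2% of all genes did. FLCN, the folliculin that acts on the Rag GTPases, was at 30.2 and 34.0 CPM in control, 31.6 and 32.4 CPM with SRPIN340 and 120.3, 109.4 and 116 CPM in acidosis (log2 fold change 1.85, SE 0.0943, adjusted p = 1.82e-07, edgeR), and its partner FNIP1 had a log2 fold change of 1.59. PPP3CA (-1.07), the catalytic subunit of calcineurin, and SLC38A9 (-1.04), an arginine sensor, fell. Of 9 genes of mannose 6-phosphate sorting, which delivers enzymes to the lysosome, 5 rose and 1 fell, with GGA3 at 1.09, GNPTG at 0.79 and GGA2 at -0.52. With library totals only, GNPTG and ATP6V1B1 did not pass, the other genes named from these lists kept their direction and passed, and over the 103 genes 30 passed upward and 41 downward, where 16.2% and 55.0% of all genes did, and the median log2 fold change turned to -0.12. With SRPIN340, 1 of the 103 genes passed, downward, by edgeR.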

How the data were processed

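Poly(A) RNA of 7 HEK-293 samples was sequenced. The study's methods also mention replicates within each biological repeat, and how these enter the 7 samples is not given in the sources used here. Per the study's methods and the submitters' processing notes, the authors trimmed reads with Trimmomatic 0.39 and Trim Galore 0.6.6, quantified transcripts with Salmon 1.5.1 against Gencode GRCh38.p13 and summed them to genes with tximport, whose scaling option is not given in the sources used here. The authors deposited these as estimated counts, 1 value for each gene and sample. Of 19978 gene IDs, 19977 matched GENCODE release 44, and 1951 genes were at 0 in all samples.

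Here the estimated counts were rounded, scaled by TMM, filtered with filterByExpr and fitted over all 7 samples with the quasi-likelihood test of edgeR 4.0.16 (R 4.3.3), with Benjamini-Hochberg adjustment over the 14863 genes tested. A gene passed at an adjusted p under 0.05 and was called if its absolute log2 fold change was also over 1. The authors' filter of 6 TPM was not applied, since it needs transcript lengths, and a mean of at least 6 CPM was tried in its place. The 48 genes and the other lists were chosen with earlier results of these data known. Named with full values were genes called in either treatment, the highest and lowest of each role in acidosis, the TFEB family and the partners compared as ratios. From the other lists, up to 2 passed genes with the largest rise and 2 with the largest fall were named, at a mean of at least 10 CPM; ATP6V1B1 and ATP6V0D2 were named in addition, after their values were seen. Some genes that these rules would name are not reported here. Lengths per kilobase are those of canonical transcripts. Ratios were tested with SciPy 1.17.1. Replicates differed beyond sampling noise (chi-square per degree of freedom 6.77 to 12.0), so none was merged.

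In simulated counts with 200 changed genes for acidosis against control, edgeR recovered 16%, 64%, 86% and 96% of genes changed by 0.5, 1, 2 and 3 on the log2 scale, with 10 false passes among 14730 genes fitted. Alternatives were DESeq2 1.42.0, RLE size factors, library totals only, no filter, only the groups compared, a replicate block, a fold limit of 0.5 and each sample left out. A fit without a control or an SRPIN340 sample left a single sample in that group.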

Additional observations from a re-analysis of the deposited data

How the results depend on the processing

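For acidosis against control, DESeq2, RLE factors, no filter, the 6 CPM minimum, only the groups compared and the replicate block each kept the counts of passed and called genes among the 48 within 1.5 times those given above. Of the genes that passed above, 1 missed the test with only the groups compared and 1 with the replicate block. Library totals only gave 26 passes upward and 10 downward, 7 and 4 calls and a median of 0.31. A fold limit of 0.5 gave 35 calls upward and 4 downward, where 3969 and 4435 of all 14863 genes were called. With single samples left out there were 38 to 40 passes upward, 4 downward, 19 to 23 calls upward and 2 to 3 downward, and medians of 0.86 to 0.96. Under library totals only these values reversed: the medians of the V1 (-0.052) and V0 (-0.040) sectors, ATP6V1D (-0.29), ATP6V0A1 (-0.040), ATP6V0A2 (-0.065), ATP6V0E1 (-0.023), ATP6V0E2 (-0.20), ASAH1 (-0.096), LIPA (-0.24), SCARB2 (-0.095) and NPC1 (-0.026). This scaling shifts the median of all genes to -0.63.

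For SRPIN340 against control, the upward passes were 0 with RLE factors and 0 to 1 with single samples left out. The downward passes were 5 with DESeq2, 1 with library totals only and 0 to 4 with single samples left out, and a fold limit of 0.5 gave 1 downward call. The median was -0.029 with library totals only and -0.14 to -0.058 with single samples left out, and the TFEB family median ranged from -0.011 without control replicate 1, where it reversed, to 0.20 without control replicate 2. In acidosis against SRPIN340, library totals only gave 28 upward and 9 downward passes, 6 and 4 calls and a median of 0.32. Over all 14863 genes there were 2349 and 8450 passes and 775 and 5505 calls. With TMM, a fold limit of 0.5 gave 37 and 4 calls, where 4015 and 4550 of all genes were called. Leaving out single samples gave medians of 0.92 to 0.98. There the values of ATP6V1B2 (-0.48), ATP6V1D (-0.038), ATP6V0D1 (-0.19), CTSC (-0.031), ASAH1 (-0.24), LIPA (-0.43), SCARB2 (-0.17) and NPC1 (-0.010) reversed under library totals only.

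The share of the library held by the 48 genes differed between acidosis and control by 0.205 to 0.232 percentage points with single samples left out and by 0.347 without the 100 genes of most counts. Between SRPIN340 and control it differed by -0.0217 to 0.00535 points, the sign turning without control replicate 2. The difference between acidosis and control in the log2 ratio of ATP6V0A1 to ATP6V0A2 ranged from -0.055 without control replicate 1 to 0.12 without control replicate 2 and was -0.014 without acidosis replicate 3, and the same difference for ATP6AP1 to ATP6AP2 ranged from -0.15 without control replicate 1 to 0.0035 without control replicate 2.

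The samples share only replicate numbers: the deviations of same-numbered samples correlated at -0.11 to 0.06. With a replicate block, 0 of the 48 genes passed upward and 0 downward for SRPIN340 against control, and 51 instead of 342 genes passed over the whole table; the cause was not tested. The number of samples, 2 or 3 a group, limits what can be detected for small changes.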

Other observations

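A list of 26 genes for the fusion and positioning of lysosomes, drawn up after the other results were known, was followed in acidosis by the same edgeR test. Of these genes 7 passed upward, 7 downward and 12 did not pass, with a median log2 fold change of 0.06, near the 32.5% and 34.2% of all genes that passed upward and downward. VTI1B, a SNARE of late endosomes, was at 72.4 and 74.7 CPM in control and 166, 153 and 163 CPM in acidosis (log2 fold change 1.13). VPS33A, a subunit of the HOPS and CORVET tethering complexes, was at 70.1 and 73.1 CPM in control and 14.7, 19.5 and 17.5 CPM in acidosis (-2.06). SNAPIN, of the BORC complex that positions lysosomes, was at 33.9 and 36.5 CPM in control and 13.1, 9.91 and 10.1 CPM in acidosis (-1.66), and VPS18, another HOPS and CORVET subunit, had a log2 fold change of -1.12. For each of these genes the acidosis samples did not overlap with control. Over all genes they lay wholly above control in 37.0% and wholly below it in 39.5%. With library totals only, 1 of the 26 passed upward (VTI1B, 0.55) and 19 downward, where 16.2% and 55.0% of all genes did, and the median was -0.51.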
